A study of Mus musculus with 12 samples.

Results

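Kidney RNA of the congenic mouse strain B6.NODIdd1,5 was compared with kidney RNA of C57BL/6 (B6) mice on 2 cDNA arrays, named S1 and S2 here. The arrays are 2 of the 12 in the series, in 6 groups of 2, and the only ones made from kidney. A gene was included where at least 1 probe with a single gene symbol had a value on both arrays, which held for 8450 of the 8708 genes the platform names. Each value is a log2 ratio of the congenic channel (Cy5) to the B6 channel (Cy3), centred on the median of its array, so that 0 marks the typical feature and a log2 ratio of 1 is a fold of 2.

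The groups used were B6.NODIdd1,5 kidney against B6 kidney and, for contrast, B6.NODIdd1,5 spleen T cells against B6 spleen T cells. The other 4 groups of the series, NOD and NOD.H2h4 spleen T cells and T cells after the reciprocal marrow transfers NODtoB6 and B6toNOD, lent only their spread to the fit. The labels name no treatment, age, sex, number of animals, pooling or diabetes state for the kidney groups. The strain name places NOD alleles of Idd1 and Idd5 on the B6 background. The labels give neither the ends of the intervals nor any NOD sequence elsewhere in the genome. Nothing states that S1 and S2 came from separate animals, so the spread behind the p-values, pooled over the array pairs of the 6 groups, may be technical. B6 kidney entered each array as the reference channel and counts as 1 control sample whose own spread is left out.

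Idd loci are chromosome regions in which NOD mice, which develop autoimmune diabetes, carry alleles that alter its risk. Idd1 lies in the major histocompatibility complex (MHC), whose class II molecules present peptides to CD4+ T cells, and Idd5 holds the genes of the T cell receptors Cd28, Ctla4 and Icos. In the kidney, the proximal tubule reabsorbs most of the filtrate and runs on mitochondrial oxidation of fatty acids, and the loop of Henle and collecting duct adjust salt, water and acid.

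The 2 arrays resembled each other closely. Across the 8450 named genes the values of S1 and S2 had a Pearson correlation of 0.744 and a Spearman correlation of 0.837, and 88.8% of genes had the same sign on both. These are correlations across genes of 2 arrays that share the reference, and genes are not independent replicates. The median absolute deviation of the difference S1 minus S2, scaled as a standard deviation, was 0.109 over all features, the lowest of the 6 groups (0.189 to 0.455 in the others). Because the fit pools the spread of the 6 groups, the median standard error (SE) of a kidney value was 0.19. Before centring, the array medians were -0.41 and -0.51.

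Of 15600 features tested in kidney, 5285 (33.9%) passed an adjusted p of 0.05 in limma's moderated test, 3527 of them higher than B6 (22.6%) and 1758 lower (11.3%). Of the 8450 named genes, 2241 passed (26.5%), with 1210 higher (14.3%) and 1031 lower (12.2%). Without centring, 441 features were higher and 4707 lower, so 8.57% of calls lay on the higher side in place of 66.7%. Every direction below is therefore relative to the median feature of the array. Centring removed a shift of -0.46 on average, so a gene called higher with a smaller value than that lies below 0 without it. Without S1 or without S2, 2546 and 2666 features passed. Most of the calls were small. A log2 ratio of at least 1 was reached by 96 of the higher and 299 of the lower named genes, and one of at least 2 by 18 and 77. The share of features called ranged from 17.1% to 49.1% between sixteenths of the probe order.

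**Figure D1:**
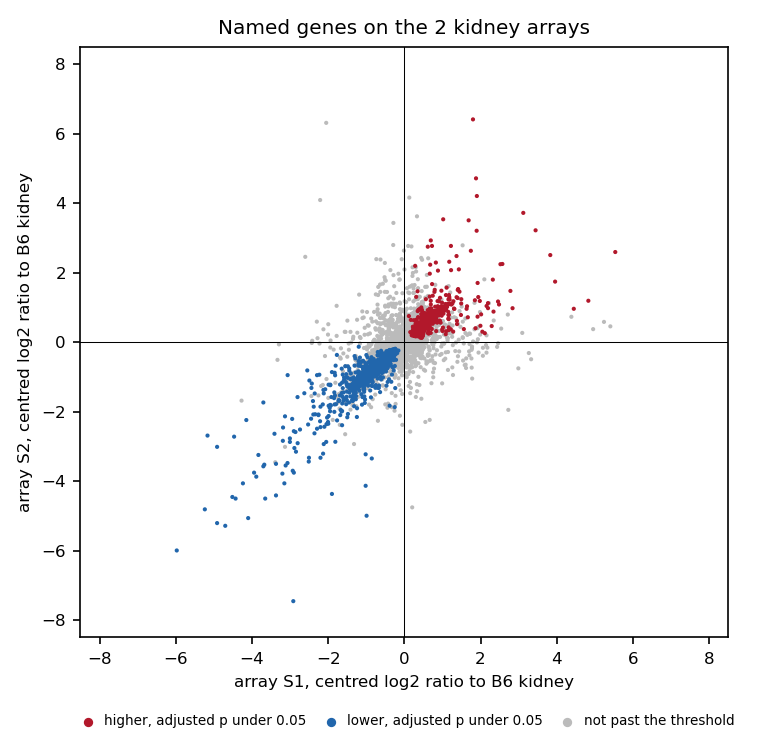
Each point is 1 of 8450 named genes, with its centred log2 ratio to B6 kidney on array S1 (x axis) and S2 (y axis). The 1210 genes that passed as higher (red) and the 1031 that passed as lower (blue) lie on the same side of 0 on both arrays.

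The first question is whether genes of the introgressed intervals differed in kidney. RefSeq places 54 genes with values between H2-K1 and Mog on chromosome 17, the core of the MHC, of which 5 were higher and 7 lower in congenic kidney, with a median of -0.07 (-0.52 without centring). Between Cd28 and Slc11a1 on chromosome 1, within Idd5, 33 genes had values, of which 5 were higher and 3 lower, with a median of 0.03 (-0.43 without centring). Beside the 14.3% and 12.2% of all named genes, these are shares of 9.26% and 13% for the MHC and 15.2% and 9.09% for Idd5. The bounds were chosen from gene order and are not the ends of the NOD segments. A separate list of Idd5 region genes, not limited to these bounds, had 15 higher (22.4%) and 7 lower (10.4%) of 67 measured. Without centring 1 was higher and 18 lower. The like list for the MHC had 7 higher and 7 lower of 51 (13.7% each), or 0 and 18 without centring.

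Cd28, the costimulatory receptor that lowers the threshold of T cell activation, was the Idd5 gene with the most negative value between these bounds. It read -1.11 on S1 and -1.24 on S2, a mean of -1.17 ± 0.10 (SE, n = 2 arrays; limma adjusted p = 0.000274). Both arrays lay well below 0. Spleen T cells of the same strain read -1.46 and -1.31, and the difference between the tissues, 0.21 ± 0.14, did not pass (limma adjusted p = 0.336). Icos, the related receptor beside it, had a kidney value of 0.03 and did not pass.

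Crygf, a lens crystallin, was lower at -1.05 on both arrays (limma adjusted p = 0.024). Crygc, Crygb and Cryga, its neighbours in the same crystallin cluster, had values of -0.18, 0.17 and -0.02 and did not pass. The remaining lower gene was Tmbim1, a membrane protein of the Bax inhibitor family, at -0.42 and -0.29 (limma adjusted p = 0.0447). On the higher side stood Xrcc5, the Ku80 subunit that binds broken DNA ends, at 0.97 and 1.48 (mean 1.23 ± 0.14, limma adjusted p = 0.00105). Next came Pecr, a peroxisomal enzyme of fatty acid elongation, at 1.08 on both arrays (± 0.24, limma adjusted p = 0.0113). The 2 arrays of each of these genes were on one side of 0. Pecr was lower than B6 in congenic spleen T cells, at -0.73 and -1.09, and the tissues differed by 1.99 ± 0.34 (limma adjusted p = 0.00564). Smarcal1, which remodels stalled replication forks and is a near neighbour of Pecr, had a kidney value of 0.40 and also differed from the T cells, by 0.51 ± 0.09 (limma adjusted p = 0.00578). Each of these Idd5 values rests on a single probe.

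In the MHC the lowest gene past the threshold was H2-DMa, the chaperone chain that loads peptides onto class II molecules, at -1.03 and -0.85 (mean -0.94 ± 0.13, limma adjusted p = 0.00147). In spleen T cells H2-DMa read -1.27 and -0.90, and the tissues differed by 0.14 ± 0.18, which did not pass. The class II chains themselves did not pass in kidney, with H2-Aa at -0.36 and H2-Eb1 at 0.09. Tap2, the peptide transporter of the class I pathway, was higher at 0.41 on both arrays (limma adjusted p = 0.00316), while the proteasome subunits Psmb8 and Psmb9 beside it were at -0.06 and 0.03 and did not pass. Probes of MHC genes can bind RNA of related genes and can differ in match to NOD and B6 alleles; the part of either in these values was not tested.

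The remaining called MHC genes do not act in antigen presentation. Stk19, a nuclear protein of transcription-coupled DNA repair, was lower at -0.85 and -0.77, and Pou5f1, the pluripotency factor Oct4, was lower at -0.95 and -0.78. Gtf2h4, a subunit of the repair and transcription factor TFIIH, was lower at -0.45 on both arrays, and the RNA helicase Dhx16 was lower at -0.41 and -0.42. In the other direction, Mdc1, a scaffold of the DNA damage response, rose to 0.59 and 0.58 (limma adjusted p = 0.00159), and Ehmt2, a histone H3 methyltransferase, rose to 0.52 and 0.40. Clic1, a chloride channel protein, was lower in both tissues, at -0.30 in kidney and -0.71 in T cells, and the tissues differed by 0.42 ± 0.10 (limma adjusted p = 0.0219).

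**Figure D2:**
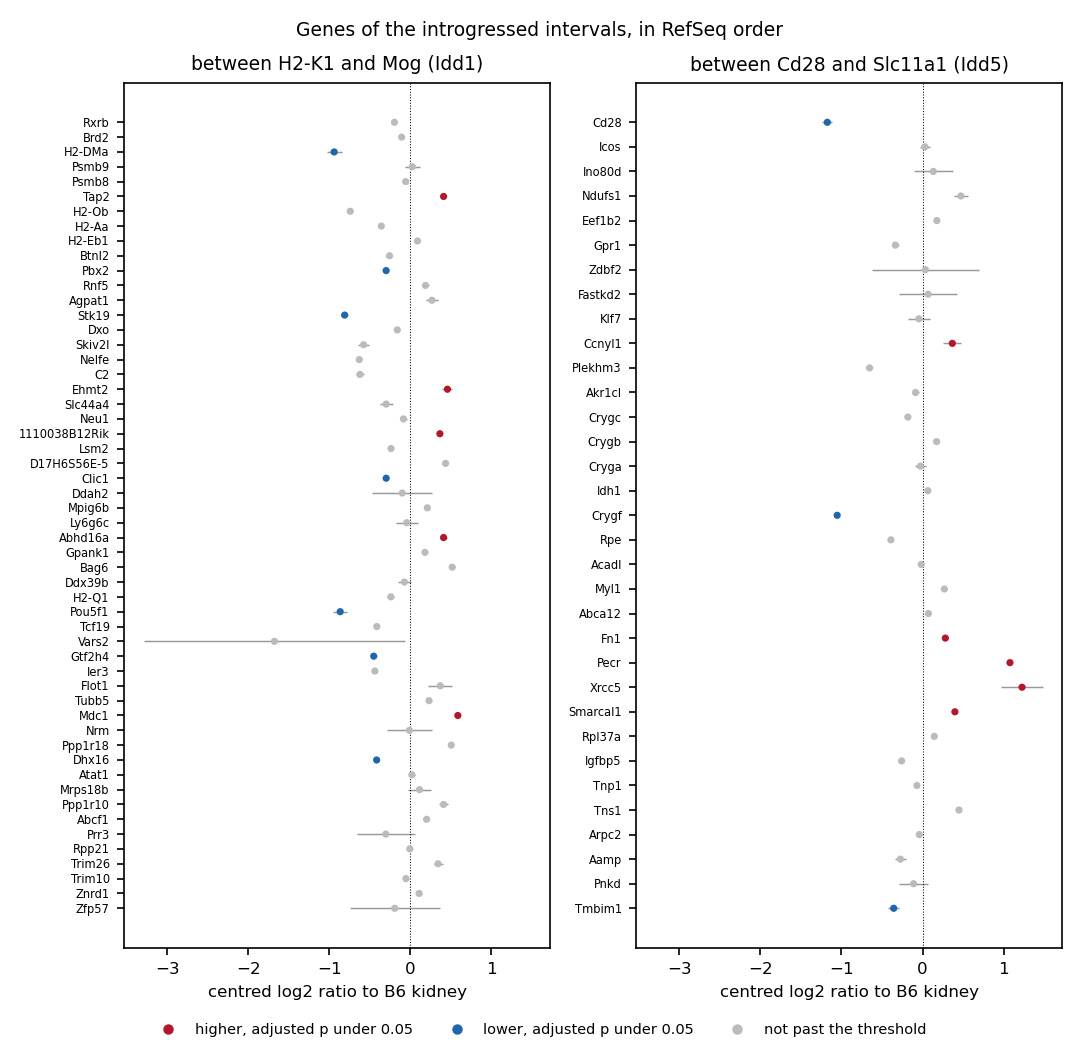
Centred log2 ratios to B6 kidney of the measured genes between H2-K1 and Mog (left, 54 genes) and between Cd28 and Slc11a1 (right, 33 genes), in RefSeq order from top to bottom. Dots are means of 2 arrays and grey lines join S1 and S2. Called genes (red higher, blue lower) lie among uncalled neighbours in both intervals, and the red genes Tap2, Ehmt2, 1110038B12Rik, Abhd16a, Ccnyl1, Fn1 and Smarcal1 turn below 0 without centring.

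For genes with 2 or more probes measured on both arrays, the probes can be set side by side. Of 2877 such genes 596 were called, and in 433 of these (72.7%) every probe lay on one side of 0 on both arrays. The same held for 704 of 2281 uncalled genes (30.9%). The call is made on the mean of the same probes, so called genes have probes on one side more often by construction, and the shares are a description. The called share was 20.7% among these genes and 29.5% among the other 5573, which had fewer than 2 probes measured on both arrays. Values of at least 2 in size were found in 0.452% of the former and 1.47% of the latter.

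Among the multi-probe genes, Prdx1, a peroxiredoxin that reduces hydrogen peroxide, had the tightest agreement of the 10 highest. Its values were 1.06 and 1.0, its probes ranged from 1.0 to 1.07, and its mean was 1.03 ± 0.10 (limma adjusted p = 0.000341). Cdkn2aipnl, at 1.37 and 1.30, and the cyclin Ccni, at 1.75 and 2.63, were also higher, but their probes ranged from 0.25 to 2.45 and from 0.27 to 4.99. Pik3r1, the regulatory subunit of phosphoinositide 3-kinase, was higher at 1.63 and 0.96.

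The lowest multi-probe gene was Trim13, a ubiquitin ligase of the endoplasmic reticulum, at -4.47 and -2.72. Ppp3cb, a catalytic subunit of calcineurin, was lower at -3.19 and -2.84 with probes from -4.31 to -2.07 (mean -3.01 ± 0.19, limma adjusted p = 0.000216). Both of its probes were thus far below 0. Bcat1, which starts the breakdown of branched-chain amino acids, was lower at -4.15 and -2.24. Smarce1, a subunit of the SWI/SNF chromatin remodeller, was lower at -1.76 and -2.25, and Bnip3l, a receptor for the removal of mitochondria, at -1.93 and -1.83. The probes of the last pair disagreed in size, from -3.93 to -0.49 for Smarce1 and from -3.80 to -0.05 for Bnip3l.

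The cytosolic ribosomal protein genes encode the protein part of the ribosome. Of 73 measured, 48 were higher (65.8%, beside 14.3% of all named genes), 1 was lower (1.37%, beside 12.2%) and 24 did not pass. The median was 0.36, beside -0.07 for all named genes, and 67 were above 0 on both arrays. Without centring the median turned to -0.10, with 1 higher and 8 lower. The 3 with the highest values were Rps25 (0.87 and 0.89), Rpl12 (0.86 and 0.82) and Rps3a1 (0.81 and 0.80), with limma adjusted p-values of 0.000468, 0.000218 and 0.000265. All 3 probes of Rpl12 and all 4 of Rps3a1 were above 0. The lower gene was Rpl39l at -0.35, a paralog of Rpl39 best known from testis. Without S1 or without S2, 23 and 29 of the 73 passed as higher. Processed pseudogenes of these genes are common, so a probe can read several transcripts.

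The promoters of these 3 genes are shown because they have the highest values of the list. Each is the 250 bases before the gene's start in RefSeq (GRCm38.p6), written 5′ to 3′ on the gene's strand, with matches to the ETS core motif CCGGAAG on either strand in capitals. Rps25 lies at chr9:44407464-44407713 on the plus strand, Rpl12 at chr2:32961462-32961711 on the plus strand and Rps3a1 at chr3:86142669-86142918 on the minus strand.
Rps25: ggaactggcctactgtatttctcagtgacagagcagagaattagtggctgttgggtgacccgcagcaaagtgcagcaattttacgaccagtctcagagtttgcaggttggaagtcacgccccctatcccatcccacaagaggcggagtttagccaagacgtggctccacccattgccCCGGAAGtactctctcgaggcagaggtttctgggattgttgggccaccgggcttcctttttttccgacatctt
Rpl12: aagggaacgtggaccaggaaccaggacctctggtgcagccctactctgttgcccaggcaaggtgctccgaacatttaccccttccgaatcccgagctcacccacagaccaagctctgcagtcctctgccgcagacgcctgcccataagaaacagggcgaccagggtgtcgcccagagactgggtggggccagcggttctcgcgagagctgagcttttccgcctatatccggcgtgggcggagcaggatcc
Rps3a1: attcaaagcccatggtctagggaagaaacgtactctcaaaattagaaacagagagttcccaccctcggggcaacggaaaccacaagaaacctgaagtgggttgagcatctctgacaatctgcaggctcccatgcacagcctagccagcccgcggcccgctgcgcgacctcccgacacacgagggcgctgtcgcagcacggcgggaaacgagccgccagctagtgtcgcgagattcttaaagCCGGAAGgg
The core occurs once each in the windows of Rps25 and Rps3a1 and not in that of Rpl12. It was present in 19 of 59 measured ribosomal protein genes with a window (32.2%), in 15 of the 40 that were higher (37.5%), in 14.3% of 6792 named genes measured in kidney and in 7.05% of all 27025 windows. The NRF1 core GCATGCG was present in 1 of the 59 (1.69%) and in 5.85% of the measured genes. A match is a description of the letters and not a site of binding.

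Nuclear genes of oxidative phosphorylation, the chain that makes ATP in mitochondria, had 24 higher (36.4%) and 2 lower (3.03%) of 66 measured, beside 14.3% and 12.2% of all named genes, with a median of 0.30. Without centring the median was -0.16, with 0 higher and 13 lower. The ATP synthase subunits accounted for 8 of the higher genes of 16 measured (50%) and had none lower, with a median of 0.39 (-0.07 without centring, 0 higher and 1 lower). Atp5b, the catalytic beta subunit, had 3 probes between 0.58 and 0.87 and read 0.70 and 0.66 (limma adjusted p = 0.000496). Complex III contributed Uqcrb at 0.70 and 0.69, also with every probe above 0. In complex IV, Cox6b1 (0.70 and 0.65) and Cox6c (0.62 and 0.59) were higher, and Cox10, which makes the haem of the complex and is not a subunit, was lower at -0.55 and -0.62. In complex I 6 of 24 were higher (25%) and 1 lower, with a median of 0.07 (-0.39 without centring, 0 higher and 8 lower), Ndufb9 being the highest at 0.74 and 0.71.

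The fuels of that chain were measured by smaller lists. Of 14 glycolytic and gluconeogenic genes 8 were higher (57.1%, beside 14.3% of all named genes) and 1 lower, with a median of 0.36. Without centring the median was -0.10, with 0 higher and 2 lower. Gapdh read 0.59 and 0.61, and Pck2, the mitochondrial form of the enzyme that starts gluconeogenesis, 0.61 and 0.51. The lower gene was Pkm, at -0.24 on both arrays. Of 18 genes of fatty acid oxidation 4 were higher (22.2%, beside 14.3%) and none lower, with a median of 0.28 (-0.17 without centring, 1 higher and 3 lower). Acadm, the medium-chain acyl-CoA dehydrogenase, was the highest at 1.29 and 1.18 (mean 1.23 ± 0.11, limma adjusted p = 0.000314). Pecr came next, which the list holds and counts as higher although, as described above, it acts in fatty acid elongation. Eci1, an isomerase for unsaturated fatty acids, followed Pecr at 0.86 and 0.80. Both Acadm arrays exceeded 1, that is, more than the fold of 2.

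The vacuolar ATPase, the proton pump of lysosomes and of acid-secreting intercalated cells, had 7 higher (46.7%, beside 14.3% of all named genes) and 1 lower of 15 measured, with a median of 0.42 (-0.04 without centring, 0 higher and 2 lower). Atp6v1g1, a ubiquitous subunit, read 0.63 and 0.66, Atp6v0d1 0.58 and 0.54, and Atp6v1g3, the form of intercalated cells, 0.58 and 0.52. The lower member was Atp6v0a1 at -0.77 and -0.87. The mitochondrial ribosomal proteins had 8 higher (16.3%) and 9 lower (18.4%) of 49, with a median of -0.02 (-0.48 without centring, 0 higher and 17 lower). The proteasome subunits had 6 higher (17.6%) and 1 lower of 34, with a median of -0.04 (-0.50 without centring, 1 higher and 8 lower). Both higher shares are near the 14.3% of all named genes. The lower shares were 18.4% for the mitochondrial ribosome and 2.94% for the proteasome, beside 12.2% of all named genes.

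**Figure D3:**
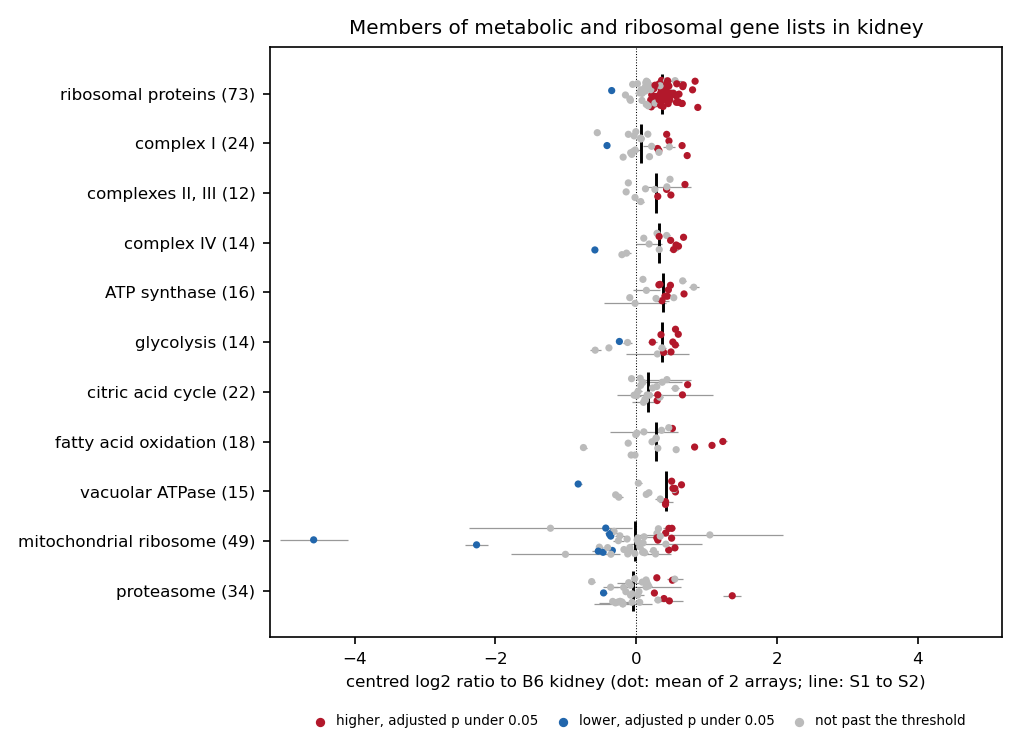
Centred log2 ratios to B6 kidney of the measured members of 11 gene lists, with the number measured in brackets. Dots are means of 2 arrays, grey lines join S1 and S2, black bars are list medians, red and blue mark genes that passed. The ribosomal median is 0.36 and the vacuolar ATPase median 0.42, and these turn to -0.10 and -0.04 without centring.

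Kidney cell types were followed through their markers, with few genes per type. A ratio gives no level, so it cannot show that the labelled tissue expresses a marker. In bulk RNA, a change in the number of cells of a type and a change of RNA per cell cannot be told apart. Umod, the most abundant protein of urine and made by the thick ascending limb, was higher at 1.02 and 1.0 (mean 1.01 ± 0.11, limma adjusted p = 0.00175). The sodium, potassium and chloride cotransporter Slc12a1 of the same segment had a value of 0.02 and did not pass. In spleen T cells of the strain 1 of these 2 genes was higher, beside 11.1% of all named genes. Neither was shown to differ between the tissues.

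Of 9 proximal tubule markers, 3 were higher (33.3%, beside 14.3% of all named genes) and none lower, with a median of 0.44. Without centring the median was -0.01, with 0 higher and 2 lower. Lrp2, the megalin receptor that retrieves filtered proteins, was higher at 0.92 and 0.84 (mean 0.88 ± 0.12, limma adjusted p = 0.00147), with its 2 probes on one side of 0. Slc27a2, a fatty acid transporter, read 0.80 and 0.81, and the cytochrome Cyp2e1 0.44 and 0.45. The others did not pass, among them Cubn, the partner of Lrp2, at 0.44 and Miox at 0.56. In spleen T cells 1 of 8 proximal tubule markers was higher and 1 lower, beside 11.1% and 18.4% of all named genes. Of these 8, 2 had a higher ratio in kidney and none a lower one, beside 11% and 6.58%. In the distal nephron Wnk4, the kinase that sets the salt cotransporter's activity, was lower at -1.34 and -1.21 (mean -1.27 ± 0.22, limma adjusted p = 0.00398), with 3 probes below 0. Calb1, Slc8a1 and Wnk1, the other 3 markers of that segment with a value, ranged from -0.41 to -0.09 and did not pass.

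Other compartments gave 1 or no called marker in most lists. The lower shares were 20% for podocytes and 14.3% each for endothelium and stroma, beside 12.2% of all named genes. The endothelial higher share was 14.3%, as for all named genes. The median of all named genes was -0.07. Wt1, the podocyte transcription factor, was lower at -0.35 and -0.34, and 4 of the 5 podocyte genes were below 0 on both arrays. Of 7 endothelial markers Pecam1 was higher at 0.46 and 0.39, and Esam was lower at -3.65 and -4.50. Cdh5, the cadherin of endothelial junctions, had a value of 0.30 and did not pass. All 7 genes of mesangium, stroma and smooth muscle were below 0 on both arrays (median -0.50), but only Itga8, at -0.41 and -0.56, passed.

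Immune cell markers bear on the interval genes, since Cd28 is itself a T cell marker. Of 7 T cell markers 3 were lower (42.9%, beside 12.2%) and none higher (median -0.66, and -1.12 without centring, with 5 lower): Cd28, the kinase Fyn at -1.12 and -0.89, and the homing receptor Ccr7 at -0.58 and -0.74. Cd4 read -1.18 and -1.40 and did not pass (limma adjusted p = 0.0658), and Il7r was at 0.18. Thus 6 of the 7 were below 0 on both arrays, and the part of T cell number in the Cd28 value was not tested. In spleen T cells of the strain 4 of 6 T cell markers were lower and none higher, with a median of -0.62. All named genes had 18.4% lower there. None of the 6 was shown to differ between the tissues (median difference -0.10). Btk was the 1 lower gene of 5 B cell markers (20%, beside 12.2%), at -0.99 and -0.81. Of 9 myeloid markers Lyz2 (0.48) and C1qb (0.33) were higher and S100a9 (-0.52) and Fcgr3 (-0.53) lower. These are shares of 22.2% each way, beside 14.3% and 12.2% of all named genes.

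**Figure D4:**
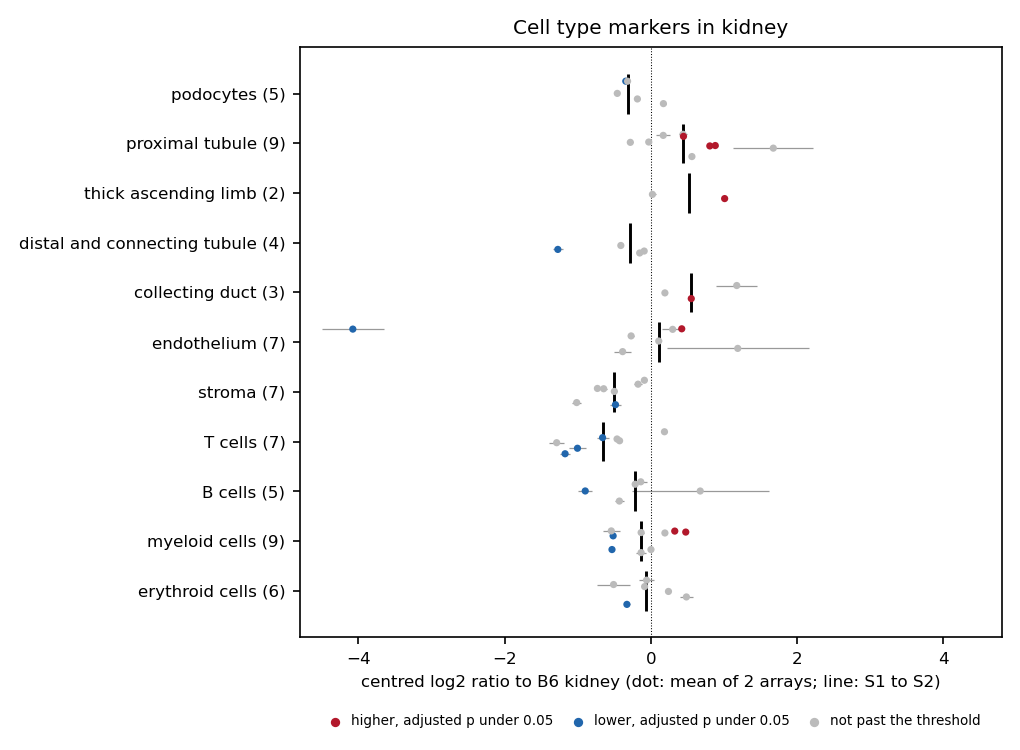
Centred log2 ratios to B6 kidney of the measured cell type markers, with the number measured in brackets. Dots are means of 2 arrays, grey lines join S1 and S2, black bars are medians, red and blue mark genes that passed. Umod and Lrp2 lie near 1 and the 7 stromal genes lie below 0, where their median was -0.50, or -0.96 without centring.

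Other lists cover the state of the tissue. Of 13 kidney injury genes Havcr1, the KIM-1 protein of injured proximal tubule, was higher by little at 0.37 and 0.31, S100a6 was higher at 0.32 and 0.25, and Cdkn1a, the p21 inhibitor of the cell cycle, was lower at -1.14 and -1.15 (limma adjusted p = 0.00444). These are shares of 15.4% higher and 7.69% lower, near the 14.3% and 12.2% of all named genes, and without centring 0 were higher and 6 lower. Lcn2 read -0.65 and 0.54 and did not pass. The clock genes had 5 lower (55.6%, beside 12.2% of all named genes, and 5 without centring) and none higher of 9: Per3 at -0.85, Rora at -0.69, Npas2 at -0.63, Arntl at -0.43 and Nr1d2 at -0.23. In spleen T cells of the strain 4 of these 9 were lower and none higher, beside 18.4% and 11.1% of all named genes. None of the 9 was shown to differ between the tissues. With the replicate block 3 were lower in kidney, and 1 after subtracting the mean of the 5 T cell groups. The labels do not state the hour at which the kidneys were taken. Of 24 immediate-early and stress genes 4 were higher (16.7%, near the 14.3% of all named genes) and 6 lower (25%, beside 12.2%), or 0 and 15 without centring. Egr1 read 1.38 and 0.61, whereas Dusp1, at -0.57 on both arrays, Sgk1, at -0.59 and -0.56, and Klf4, at -0.79 and -0.74, were lower. Of 34 chaperones 9 were higher (26.5%, beside 14.3%) and 3 lower (8.82%, beside 12.2%), or 1 and 15 without centring. Hspa8, the constitutive Hsc70, was higher at 0.77 on both arrays with all 4 of its probes above 0 (limma adjusted p = 0.000255).

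Some kidney genes depend on sex, which the labels do not give. The Y-linked Eif2s3y was higher at 0.59 and 0.53 (limma adjusted p = 0.00388), and Xist, of the inactive X, read 0.18 and 0.68 and did not pass. Of the androgen-responsive genes measured, Odc1 was higher at 0.91 and 0.90 and Cyp7b1 lower at -0.86 and -0.95. The part of sex in the other results was not tested.

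The largest values came from genes with a single probe on both arrays. The 10 highest named genes had mean values from 2.70 (Usp5) to 4.11 (Fmnl2), and their 2 arrays often differed widely. Fmnl2, a formin that elongates actin filaments, read 1.80 and 6.42, and Ccdc97 read 5.54 and 2.60. Timm8a1, an import chaperone of mitochondria, and Sh3yl1 were steadier, at 3.12 and 3.72 and at 3.45 and 3.22. Oas1e, a member of the interferon-induced oligoadenylate synthetase family, read 3.83 and 2.51, while 2 of the 19 measured interferon response genes were higher (10.5%) and 1 lower (5.26%), no more than the 14.3% and 12.2% of all named genes.

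High ratios were also numerically coarse. Before centring, 98.3% of the 60 ratios of at least 8 on S1 and all 62 on S2 equalled a fraction with a denominator of up to 20, within 0.0005. Of ratios between 0.5 and 1, 14.4% and 15% did. Spot intensities were not analysed here, so how bright these spots were is not known. Fmnl2 needed denominators of 35 and 1, Ccdc97 of 1 and 4 and Oas1e of 11 and 1.

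On the lower side several genes read alike on the 2 arrays. Low ratios are coarse as well, since 99.95% of deposited values on S1 and 99.96% on S2 were whole multiples of 0.001. Ratios below 0.5 were not part of the fraction check, and the part of rounding in the likeness of the arrays was not tested. Smpd2, a neutral sphingomyelinase, read -5.97 and -6.00 (mean -5.99 ± 0.34, limma adjusted p = 0.00021). Chmp4b, a filament subunit of the ESCRT-III membrane scission machinery, read -4.43 and -4.50, and Robo1, a receptor for Slit guidance proteins, -4.51 and -4.46. All 3 lay far below 0 on both arrays. Mrpl15, of the mitochondrial ribosome, read -4.10 and -5.06 and Sap30, of the SIN3 histone deacetylase complex, -4.91 and -5.21. Irx1, a homeobox factor of nephron patterning, was the least stable of these, at -2.91 and -7.46. Each was measured by a single probe with values on both arrays.

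Subtracting the T cell ratio of the same strain removes a dye effect that is constant for a gene, since both tissues carried the strain in Cy5. Of 7931 named genes 1392 differed between kidney and T cells (17.6%), 870 with a higher ratio in kidney (11%) and 522 with a lower one (6.58%). Of the 2111 kidney-called genes with this test, 738 differed. For the rest a difference was not shown, which does not show that they were alike. The 2 comparisons share no array.

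Ribosomal protein genes of the same strain read differently in the T cells, where 4 were higher and 36 lower of 73, with a median of -0.22. Of 7995 named genes tested in the T cells 2355 passed (29.5%), 887 higher (11.1%) and 1468 lower (18.4%). Of the 73, 51 had a higher ratio in kidney and none a lower one (median difference 0.48), beside 11% and 6.58% of all named genes. Without centring the median difference was 0.19, and 14 were higher and 1 lower. Rpl12 differed by 1.47 ± 0.08 and Rps3a1 by 1.57 ± 0.09 (limma adjusted p = 7.95e-05 for both). Oxidative phosphorylation genes had 24 with a higher ratio in kidney and 2 with a lower one of 64, with a median difference of 0.38. Without centring 10 were higher and 2 lower, with a median difference of 0.10. Glycolytic genes had 8 with a higher ratio in kidney and none with a lower one of 13, with a median difference of 0.82. Without centring 4 were higher and none lower, with a median difference of 0.53. The shares of all named genes, 11% and 6.58%, apply to the centred counts. Hspa8 read -1.25 and -1.24 in T cells and 0.77 in kidney, a difference of 2.02 ± 0.08 (limma adjusted p = 2.03e-05).

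Single genes with opposite ratios in the tissues were led by Sap30, Msantd1 and Trim13. Msantd1 read -1.20 and -1.19 in kidney against a mean of 5.86 in T cells, a difference of -7.06 ± 0.19 (limma adjusted p = 1.99e-06). Cyp7b1, the oxysterol hydroxylase of bile acid synthesis and a gene on the sex-dependent list, read -0.86 and -0.95 in kidney and 3.02 and 3.05 in T cells, a difference of -3.94 ± 0.14 (limma adjusted p = 7.77e-06). Cyp7b1 was among the genes chosen for the largest differences between the tissues, so the size is a description. On the other side Pigf, which attaches GPI anchors, differed by 4.58 ± 0.68, but its 2 probes in kidney ranged from -0.63 to 4.72. Errfi1, a feedback inhibitor of the EGF receptor, was higher at 0.83 and 0.81 in kidney and at -1.47 in T cells, a difference of 2.29 ± 0.19 (limma adjusted p = 0.000307). Hells, a chromatin remodeller of dividing cells, was below B6 in both tissues, at -1.06 in kidney and -4.15 in T cells.

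**Figure D5:**
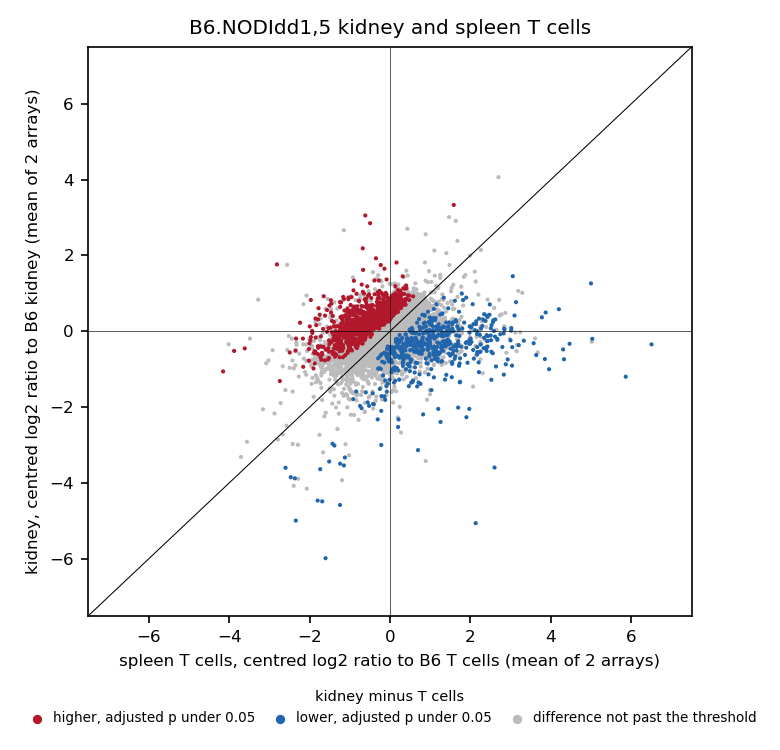
Each point is a named gene with its mean centred log2 ratio to B6 in spleen T cells (x axis) and kidney (y axis) of B6.NODIdd1,5 mice, 2 arrays each, with the line of equal ratios. Of 7931 genes tested, 870 had a higher ratio in kidney (red) and 522 a lower one (blue).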

How the data were processed

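The data are 12 two-colour cDNA arrays of mouse RNA, in 6 groups of 2. The authors deposited 1 table of log2 ratios of the experimental to the B6 channel, while its upstream tools and normalisation were not given in the sources used here. Per the labels, the strain arrays carried the strain in Cy5 and B6 in Cy3, with no array of exchanged dyes named.

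Cells at the log2 of a ratio of 100000 (4 on S1 and 21 on S2) were treated as missing. Of 20736 probes, 13033 carried 1 gene symbol in the platform annotation, 312 several and 7391 none; 12850 were matched to RefSeq. Averaging the probes of each gene left 8708 genes (3070 of them measured by several probes), and each remaining probe was an unnamed feature, for 16411 features in all. Each array was centred on its median. Group means of the 12 arrays were fitted in R 4.3.3 by lmFit and eBayes of limma 3.58.1, which was tested on simulated data, and p-values were adjusted by Benjamini-Hochberg over all features of a comparison, with a threshold of 0.05. SE are those of the moderated fit. The number of arrays limits the precision, and signal over background is unknown.

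Named genes were the 10 largest called changes in each direction among all genes, among genes with 2 or more concordant probes and in the contrast with T cells, up to 4 called members of each list, and members of marker and interval lists. The members and lists were chosen with earlier results of these data known. Alternatives covered centring, scaling, the missing-value rule, probe summary, arrays fitted, variance model, replicate block and each replicate left out.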

Additional observations from a re-analysis of the deposited data

Results flagged for a closer look

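For 59 of the 129 genes named in the text, the ratio to B6 differed between kidney and spleen T cells of the same strain. The test was limma's test of that difference, with an adjusted p under 0.05. Of the 59, 42 had a higher and 17 a lower ratio in kidney. Of all 7931 named genes tested, 17.6% differed. The genes named in the text were picked, and 110 of the 129 were already called in kidney, so the count is a description. The values below are kidney minus T cell log2 differences, and 20 of the 59 were chosen as the largest such differences, so their size is a description. Ratios were higher in kidney for Pigf (4.58), Agap3 (3.67), Vwa3a (3.35), Hells (3.09), Ccni (2.87), Pcbp2 (2.57), Errfi1 (2.29), Rnf139 (2.29), Rfx3 (2.28) and Cdkn2aipnl (2.23). Ratios were lower in kidney for Sap30 (-7.19), Msantd1 (-7.06), Trim13 (-6.19), Fam76b (-4.96), Smpd2 (-4.38), Mrpl57 (-4.17), Cdk2 (-4.02), Erv3 (-3.97), Cyp7b1 (-3.94) and Unc5a (-3.83). Erv3 is an endogenous retrovirus gene whose probes can read related copies.

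Interval genes and their neighbours were also among them. On chromosome 1 the difference was 1.99 for Pecr, 1.11 for Ankzf1, 0.56 for Fzd7, 0.51 for Smarcal1, 0.48 for Nif3l1 and -0.69 for Stradb, the kinase partner of LKB1. The probes of Stradb in kidney ranged from -1.98 to 0.28. On chromosome 17 the difference was 0.65 for 1110038B12Rik and 0.42 for Clic1.

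Among the genes of energy supply and translation the difference was 1.94 for Acadm, 0.65 for Eci1, 1.46 for Gapdh, 0.82 for Pck2, 2.19 for Ndufb9, 1.68 for Uqcrb, 0.75 for Cox6b1, 0.81 for Cox6c, -0.67 for Cox10, 1.12 for Atp5b, 0.80 for Atp6v1g1, 0.61 for Atp6v0d1, 1.13 for Rps25, 1.47 for Rpl12, 1.57 for Rps3a1 and -3.34 for Mrpl15. Among markers and genes of tissue state it was 1.34 for Lrp2, 0.39 for Cyp2e1, -1.51 for Wnk4, 0.91 for Lyz2, 0.73 for S100a9, 1.64 for Egr1, 0.49 for Dusp1, 2.02 for Hspa8, 1.29 for Eif2s3y and 1.86 for Odc1. The remaining differences were 1.34 for Prdx1, 1.75 for Sh3yl1, -2.67 for Chmp4b, -2.80 for Robo1 and -1.63 for Ppp3cb.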

How the results depend on the processing

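Against B6, 5285 features were called. The count moved by more than 1.5 times in the settings that follow, up to leaving out a kidney array. With named genes only there were 1906 calls (1048 higher, 858 lower), over 8450 genes in place of 15600 features. The main fit called 2241 of the same genes, which is within 1.5 times. The 2 kidney arrays alone gave 9689 (4889 higher, 4800 lower). After subtracting the mean of the 5 T cell groups 2934 remained past the threshold (1824 higher, 1110 lower), and with a log2 ratio of at least 1 in size 885 (308 higher, 577 lower). Leaving out a kidney array gave 2546 to 2666 calls (1954 to 2034 higher, 592 to 632 lower), with fewer samples by construction; the lone array was assumed to vary like the other groups. Within 1.5 times in all, the 8 strain arrays gave 7196 calls, of which 2900 were lower, and without centring there were 5148, with 441 higher and 4707 lower. Leaving out a T cell array of the congenic strain gave 5600 calls against B6 in either case (3552 higher, 2048 lower).

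Kidney minus T cells gave 3179 calls, 1565 without centring, 1156 with named genes only and 1631 to 1635 without a kidney array, and 2871 to 3084 without a T cell array. Of 880 list members measured 283 (32.2%) were called, and 56.9% with the kidney arrays alone, 3.86% at a log2 ratio of at least 1, 11.5% to 12.5% without a kidney array and 33.8% without a T cell array. Beside the 32.2% of list members, 26.5% of all named genes were called in the main fit. Over all features the called share was 33.9%, with 62.1% for the kidney arrays alone and 5.67% at a log2 ratio of at least 1. In kidney minus T cells, the 1156 calls with named genes only stand beside 1392 named genes called in the main fit. The share of called multi-probe genes with every probe on one side was 72.7%, and 86.6% without centring.

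Of 110 called genes named in the text, 52 lost the call without S1 and 49 without S2, and none turned. Without centring, 26 lost it and these turned: 1110038B12Rik (-0.0937), Abhd16a (-0.0481), Ccnyl1 (-0.0901), Fn1 (-0.18), C1qb (-0.13), Cyp2e1 (-0.0138), Ehmt2 (-0.000722), Fzd7 (-0.10), Havcr1 (-0.12), Pecam1 (-0.0376), S100a6 (-0.17), Smarcal1 (-0.0584) and Tap2 (-0.0479). After subtracting the mean of the T cell groups, 27 of 89 lost it and these turned: Ankzf1 (0.14), Ccnyl1 (-0.18), Atp6v0d1 (-1.02), Gapdh (-0.0227), Gtf2h4 (0.12), Lyz2 (-0.66) and S100a6 (-1.02). The cause of each was not tested.

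Same-numbered arrays did not deviate together (correlations of -0.016 to 0.029). This cannot show whether they came from the same animals, since animals need not deviate alike in different tissues. With the replicate block 5068 features were called against B6 and 2991 in kidney minus T cells.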
